A study of Mus musculus with 6 samples.

Results

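The cells described here are lung endothelial cells with transcripts of Gpihbp1, the capillary protein that carries lipoprotein lipase to the vessel lumen, and without transcripts of Car4, Ednrb or Vwf. They were picked from a table of unique molecular identifier (UMI) counts, in which each captured RNA molecule is counted once. Barcodes, the tags of single droplets, entered the analysis with a minimum of 500 genes detected and no more than 10% mitochondrial UMIs. A barcode was called endothelial when at least 3 of 7 endothelial genes (Pecam1, Cdh5, Cldn5, Egfl7, Ramp2, Cyyr1, Ptprb) had a UMI and Ptprc and Prox1 had none. Of 640 such barcodes, 181 had a Gpihbp1 UMI and no UMI of Car4, Ednrb or Vwf, and these 181 are called members. They made up 28.3% of the endothelial barcodes (95% exact interval 24.8 to 31.9, counting error only) and 1.81% of the 9994 kept barcodes.

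The study profiled lung cells of SMA-GFP;Tbx4cre;RosaTdTomato mice, in which GFP marks smooth muscle actin (SMA) and tdTomato (Tm) marks cells of the lineage in which Cre was expressed from the Tbx4 gene. The lungs were injured with bleomycin, and each of 3 sort gates was sampled once at day 21 and once at day 0: SMA+Tm+, SMA-Tm+ and SMA-Tm- cells, all sorted to lack the antigens Epcam, CD31 and CD45. CD31 is the product of Pecam1, so the members are cells that this sort was set to remove, and what they stand for among all lung endothelial cells cannot be told from them. The age and number of mice and whether animals were pooled are not given in the labels, and all groups carried both reporters.

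All 6 samples lie in a single table, with barcodes numbered by suffix (1 to 6), and the labels do not tie any suffix to a gate or a day. No comparison of day 21 with day 0 and no test was therefore possible. The table was treated as 1 pooled sample, and intervals cover counting error only. Suffixes 1 to 6 held 24, 61, 14, 27, 37 and 18 members, which were 25.0%, 34.9%, 17.5%, 26.5%, 28.7% and 31.0% of the endothelial barcodes of those suffixes. The suffixes fell into a group without Xist, the transcript of the inactive X chromosome, in members (suffixes 1, 2 and 3) and a group with 1914, 1729 and 1795 CPM (UMIs of a gene scaled to a library total of 1e6) in suffixes 4, 5 and 6. Of 55 barcode sequences found in more than 1 suffix, 2 members carried one.

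The lung's capillary bed is built from 2 kinds of endothelial cell. General capillary cells carry lipid-handling and antigen-presenting genes and are known as a source of new capillary cells after injury. Aerocytes are larger, lie against the airspace and are marked in mice by Car4 and Ednrb. Vwf, the clotting protein von Willebrand factor, marks endothelium of larger vessels. The membership rule thus takes general capillary cells by 1 gene and removes the other types by 3 others, and all 4 of these genes, like the 7 endothelial genes and Ptprc and Prox1, were left out of every count that follows.

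The remaining endothelial barcodes fell into 3 sets. A set of 184 had Car4 or Ednrb but no Vwf, a set of 212 had Vwf, and 63 had none of the 4 genes. Because a member must hold 0 UMIs of 3 genes, shallow barcodes meet the rule more easily, and the members were shallower than the sets they were compared with. The median member had 1413 UMIs and 914 genes, against 2053.5 UMIs in the Car4 or Ednrb set and 1985 UMIs in the Vwf set. The deepest member had 6149 UMIs, against 13807 in the deepest Car4 or Ednrb barcode and 31034 in the deepest Vwf barcode. In suffix 2, which held the most members, the median member had 959 UMIs. The named genes were also compared after each barcode had been drawn down to 1000 UMIs and the rule applied again. Of 120 values of named genes, 20 then fell under a 2-fold difference, and such thinned values are given beside the genes described.

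Membership rested on few molecules, and the counts are given as a description. Of the 181 members, 72 had 1 Gpihbp1 UMI, 44 had 2, 29 had 3, 19 had 4 and 17 had 5 or more, with 8 as the largest count. Gpihbp1 was not restricted to members: 79 of the 184 Car4 or Ednrb barcodes and 146 of the 212 Vwf barcodes also had it. Of the Vwf barcodes, 67 were placed there by a single Vwf UMI. All 7 endothelial genes had a UMI in 80 members, 6 in 54, 5 in 34, 4 in 11 and the minimum of 3 in 2 members. No kept barcode with Gpihbp1 and without the excluded genes stopped at 2 endothelial genes.

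Just inside and just outside the rule, levels ran as follows, as a description only. Edn1 stood at 1059 CPM in the 72 members with 1 Gpihbp1 UMI and at 1179 CPM in the 109 with 2 or more, against 447 CPM in the 63 endothelial barcodes with no UMI of the 4 genes. Gja4 stood at 453 and 437 CPM in these sets of members, against 288 CPM outside. Members with 1 Gpihbp1 UMI thus lay close to members with more. The 80 barcodes kept out by exactly 1 UMI of Car4, Ednrb or Vwf while holding Gpihbp1 had 813 CPM of Edn1, 1118 CPM of Clec1a and 1423 CPM of Sema3c, between the levels in members and in the Vwf set for all 3 genes.

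The label was checked against its 5 markers. Gpihbp1 (chr15:75596628-75599481 on the plus strand of GRCm38, the mm10 build) and Cdh5, the endothelial cadherin (chr8:104101625-104144511, plus strand), belong to the rule. Gpihbp1 stood at 1460 CPM in members, against 427.5 CPM in the Car4 or Ednrb set and 608 CPM in the Vwf set. Cdh5 stood at 1725 CPM in members, against 2003 CPM in the Car4 or Ednrb set and 1354 CPM in the Vwf set. The other 3 markers, Edn1, Sema3c and Clec1a, were not used by the rule, but they were chosen with earlier results of these data known, so their levels are given as a description.

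Edn1 encodes endothelin 1, a peptide that constricts vessels, and lies at chr13:42301476-42307990 on the plus strand. It stood at 1136 CPM in members, against 308 CPM in the Car4 or Ednrb set, 685 CPM in the Vwf set, 447 CPM in the 63 barcodes without the 4 genes and 25.3 CPM in all other kept barcodes. By suffix, members had 555, 1275, 682, 967, 1377 and 1643 CPM in suffixes 1 to 6, against 469.8, 585.5, 392, 548, 486 and 738 CPM in the other endothelial barcodes. Members were higher in each of the 6 suffixes, by least in suffix 1, and the lowest member value lay under the highest value of the other endothelial barcodes. The log2 ratio of members to the Car4 or Ednrb set was 1.88 (1.59 to 2.17) and to the Vwf set 0.73 (0.52 to 0.94). Against all other endothelial barcodes it was 1.12, and 0.66 after thinning. A UMI of Edn1 was found in 64.1% of members, 30.4% of the Car4 or Ednrb set and 60.8% of the Vwf set, and in 56.3%, 22.4% and 44.4% of them after thinning. In 3616 barcodes with Ptprc, the leukocyte gene CD45, and no endothelial gene, which should lack Edn1, the share was 0.249%, at a median of 3279.5 UMIs. Barcodes with Ptprc and any UMI of the 7 endothelial genes were left out of this set, so the share is not a background rate.

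Sema3c encodes a secreted guidance protein and lies at chr5:17574281-17730268 on the plus strand. Members had 1608, 1733, 1773, 1559, 2212 and 2525 CPM in suffixes 1 to 6, against 951, 980.1, 821, 1067, 972 and 1598 CPM in the other endothelial barcodes. The summed level was 1895 CPM in members, against 908 CPM in the Car4 or Ednrb set and 1021 CPM in the Vwf set. Members were higher within each suffix, although the lowest member value (suffix 4) lay under the highest of the others (suffix 6), and the log2 ratio was 1.06 (0.88 to 1.25) over the Car4 or Ednrb set and 0.89 (0.73 to 1.06) over the Vwf set. Shares of barcodes with a UMI were 84.0% of members, 54.9% of the Car4 or Ednrb set and 63.7% of the Vwf set, and 73.9%, 37.9% and 49.0% of them after thinning.

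Clec1a encodes a C-type lectin receptor and lies at chr6:129424772-129452000 on the minus strand. It separated members from the Vwf set more than from the Car4 or Ednrb set. Its level was 1449 CPM in members, against 1040 CPM in the Car4 or Ednrb set and 690.5 CPM in the Vwf set, with log2 ratios of 0.48 (0.29 to 0.67) and 1.07 (0.88 to 1.26). Without suffix 2 the ratio over the Vwf set was 0.93. In suffixes 1 to 6 members had 1497, 1604, 1569, 1401, 1304 and 1339 CPM, against 798, 755, 776, 992, 849 and 996 CPM in the other endothelial barcodes. The 2 ranges did not overlap.

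**Figure D1:**
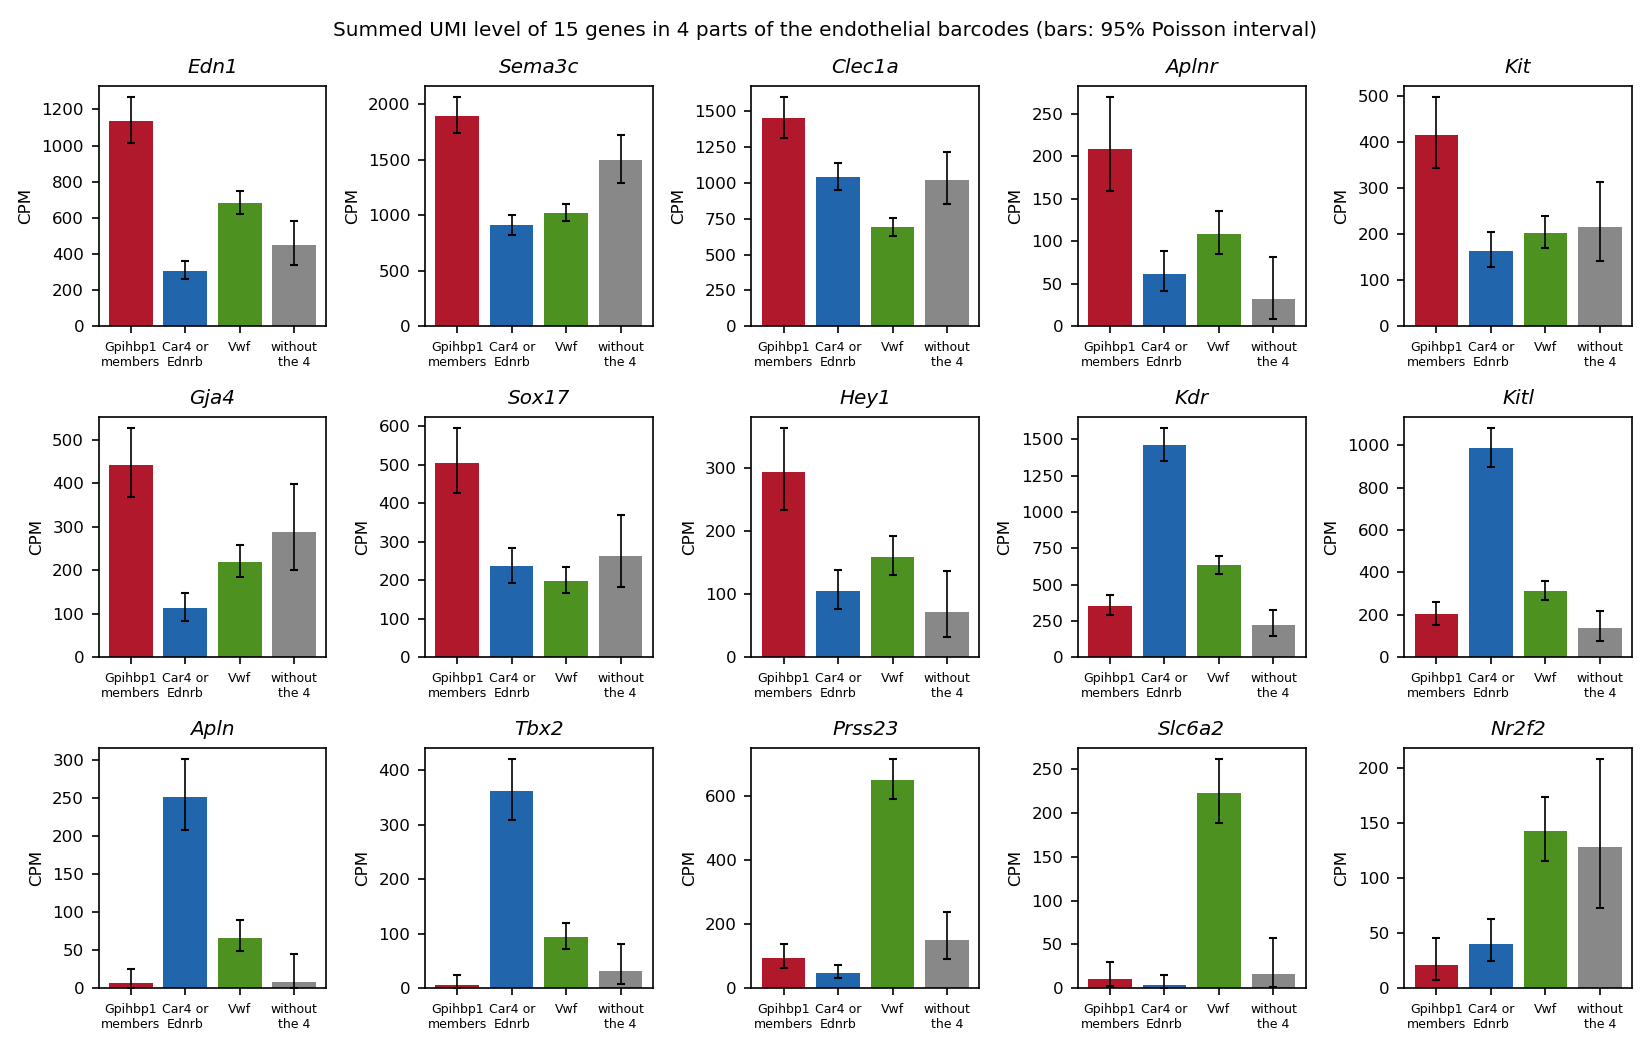
Level in CPM (linear axes) of 15 genes in the summed UMIs of 181 members, 184 Car4 or Ednrb barcodes, 212 Vwf barcodes and 63 barcodes without the 4 genes, with 95% Poisson intervals for counting error. Edn1, Sema3c, Clec1a, Aplnr, Kit, Gja4, Sox17 and Hey1 were highest in members, Kdr, Kitl, Apln and Tbx2 in the Car4 or Ednrb set, and Prss23, Slc6a2 and Nr2f2 in the Vwf set.

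Genes were compared across the whole table as ratios of CPM of summed UMIs. A gene was measured at 20 CPM or more in either group, and was called higher or lower at a 2-fold difference. Against the 459 other endothelial barcodes, 315 of 7528 measured genes were higher in members (4.18%) and 688 were lower (9.14%), so 13.3% were apart in either direction. The median log2 ratio over all measured genes was 0.02. Against the Car4 or Ednrb set, 649 of 7433 were higher (8.73%) and 789 lower (10.6%), 19.3% together. Against the Vwf set 419 of 7598 were higher (5.51%) and 722 lower (9.5%), 15% together. The medians over all measured genes were 0.04 and 0.01. Against all 9813 other kept barcodes, 1881 of 7918 were higher (23.8%) and 1400 lower (17.7%), 41.4% together, with a median of 0.32. Since all 4 comparisons share the members, and the Car4 or Ednrb and Vwf sets are most of the other endothelial barcodes, their values are given side by side and are not independent. Genes named by their ratio had to go the same way in the 5 suffixes with 15 or more barcodes on both sides. For Edn1, Sema3c, Aplnr, Kit, Sox17, Sema3g, Igfbp7 and Emp2, agreement across those suffixes was thus a condition of naming and is given as a description.

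The general capillary list held 14 genes, of which Ptprb belongs to the rule and Glp1r and Bmp6 had too few UMIs. Of the 11 measured genes, 8 were higher in members than in the Car4 or Ednrb set, 1 was lower, and the median log2 ratio was 1.34, against 0.04 over all measured genes. Against the Vwf set 1 of 11 was higher and none lower, with a median of 0.54, and against all other endothelial barcodes 3 were higher and none lower, with a median of 0.83. The list thus stood apart from the Car4 or Ednrb set in most of its genes and from the Vwf set in 1, Kit. Members were picked by a general capillary gene, Gpihbp1, so this contrast follows in part from the rule. The median was between 1.15 and 1.79 against the Car4 or Ednrb set over the processing alternatives, and between 0.29 and 0.64 against the Vwf set.

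Of the receptors on this list, Aplnr, the receptor of the vascular peptide apelin, was set farthest apart and stood at 277, 186, 136, 178, 234 and 243 CPM in members of suffixes 1 to 6, against 90.6, 46.7, 90.4, 70.6, 89.7 and 136 CPM in the other endothelial barcodes of those suffixes. Members were higher in each suffix, and the lowest member value, in suffix 3, was close to the highest of the others, in suffix 6. Summed, Aplnr stood at 209 CPM in members, against 61.7 CPM in the Car4 or Ednrb set and 108 CPM in the Vwf set, with log2 ratios of 1.76 (1.10 to 2.45) and 0.95 (0.43 to 1.46).

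Kit, the receptor of stem cell factor, stood at 415 CPM in members, against 164 CPM in the Car4 or Ednrb set and 202 CPM in the Vwf set. It was higher in members than in the other endothelial barcodes of each suffix, at 305 to 487 CPM in members against 116 to 301 CPM. Tek, the angiopoietin receptor Tie2, stood at 596, 228 and 461 CPM in members, the Car4 or Ednrb set and the Vwf set. Cd93, a lectin-like receptor of endothelial cells, stood at 1192 CPM in members, against 547 CPM in the Car4 or Ednrb set and 994 CPM in the Vwf set. Nrp1, a co-receptor for vascular endothelial growth factor (VEGF), went the other way and was lower in members than in the Car4 or Ednrb set, at 689.8 and 1659 CPM.

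Secreted and surface products followed. Cxcl12, a chemokine, stood at 592 CPM in members, against 193.5 CPM in the Car4 or Ednrb set and 324.5 CPM in the Vwf set. Plvap, the protein of the diaphragms of endothelial pores and caveolae, stood at 529.6 CPM in members, against 174 CPM in the Car4 or Ednrb set and 461 CPM in the Vwf set. The log2 ratio of Plvap over the Vwf set was 0.20 (-0.09 to 0.49), so counting error alone covers no difference there. Hmcn1, a matrix protein, stood at 1115 CPM in members, against 440.3 CPM in the Car4 or Ednrb set and 769 CPM in the Vwf set.

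Ligands of 2 of these receptors lay in the Car4 or Ednrb set. Apln, which encodes apelin, had 2 UMIs in members, against 118 in the Car4 or Ednrb set (6.97 and 251 CPM), a log2 ratio of -5.17 (-8.23 to -3.29). Kitl, which encodes stem cell factor, stood at 202 CPM in members, against 985 CPM in the Car4 or Ednrb set and 313 CPM in the Vwf set. In the other direction, Edn1 was high in members, and the gene of its receptor, Ednrb, which the rule sets to 0 there, stood at 815 CPM in the Car4 or Ednrb set. That set was picked by Car4 or Ednrb UMIs, so the Ednrb contrast is fixed by the choice of barcodes and is not a result. These are levels in sets of barcodes, and no signalling between cells was measured.

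The aerocyte list stood far apart from the Car4 or Ednrb set. Barcodes of that set were picked by UMIs of Car4 or Ednrb, and members by having none. A contrast in other genes of aerocytes thus follows in part from the rule and is given as a description. Of its 17 genes, Car4 and Ednrb belong to the rule, and each of the 15 others was at least 2-fold lower in members than in that set, with a median log2 ratio of -3.38. Against all other endothelial barcodes 14 of 15 were lower, with a median of -2.48. Against the Vwf set 8 of 15 were lower, with a median of -1.09. After thinning, the median over 13 measured genes was -0.18. A gene held at the 3-UMI floor in both sets, such as Chst1, takes this same value. The thinned median therefore cannot show whether the contrast with the Vwf set remained at equal depth. Without suffix 5 the median against the Car4 or Ednrb set was -2.58. Of these 15 genes a median of 2 had a UMI in a member, against 8 in a Car4 or Ednrb barcode and 2 in a Vwf barcode.

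Several of these genes were at or near 0 in members. Chst1, a sulfotransferase gene, had 0 UMIs in members, against 177 in the Car4 or Ednrb set. With 3 UMIs taken as the floor in members it was 36.0-fold lower, and the upper end of its log2 interval was -4.86. Fibin, a gene of a secreted protein, had 3 UMIs in members, against 320 in the Car4 or Ednrb set (10.5 and 680.6 CPM), a log2 ratio of -6.02 (-8.31 to -4.46). Tbx2, a transcription factor of the T-box family, had 2 UMIs in members, against 170 in the Car4 or Ednrb set, a log2 ratio of -5.70 (-8.75 to -3.82). Its relative Tbx3 was less far apart, at 327.5 CPM in members, against 749 CPM in the Car4 or Ednrb set and 311 CPM in the Vwf set. Rprml and Sirpa also had no UMI in members.

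Abundant genes of this kind kept a low level in members rather than 0. Emp2, a membrane protein gene, stood at 181 CPM in members, against 1976 CPM in the Car4 or Ednrb set and 469.7 CPM in the Vwf set. Kdr, the main VEGF receptor, stood at 355 CPM in members, against 1461 CPM in the Car4 or Ednrb set and 633 CPM in the Vwf set. Igfbp7, which encodes a secreted protein that binds insulin-like growth factors and is not on the list, was among the genes set farthest apart. It stood at 277, 186, 205, 414, 117 and 91.3 CPM in members of suffixes 1 to 6, against 1342, 1286, 1224, 2843, 3520 and 1548 CPM in the other endothelial barcodes. The 2 ranges did not overlap, and the log2 ratio of members to the Car4 or Ednrb set was -4.41 (-4.80 to -4.04).

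**Figure D2:**
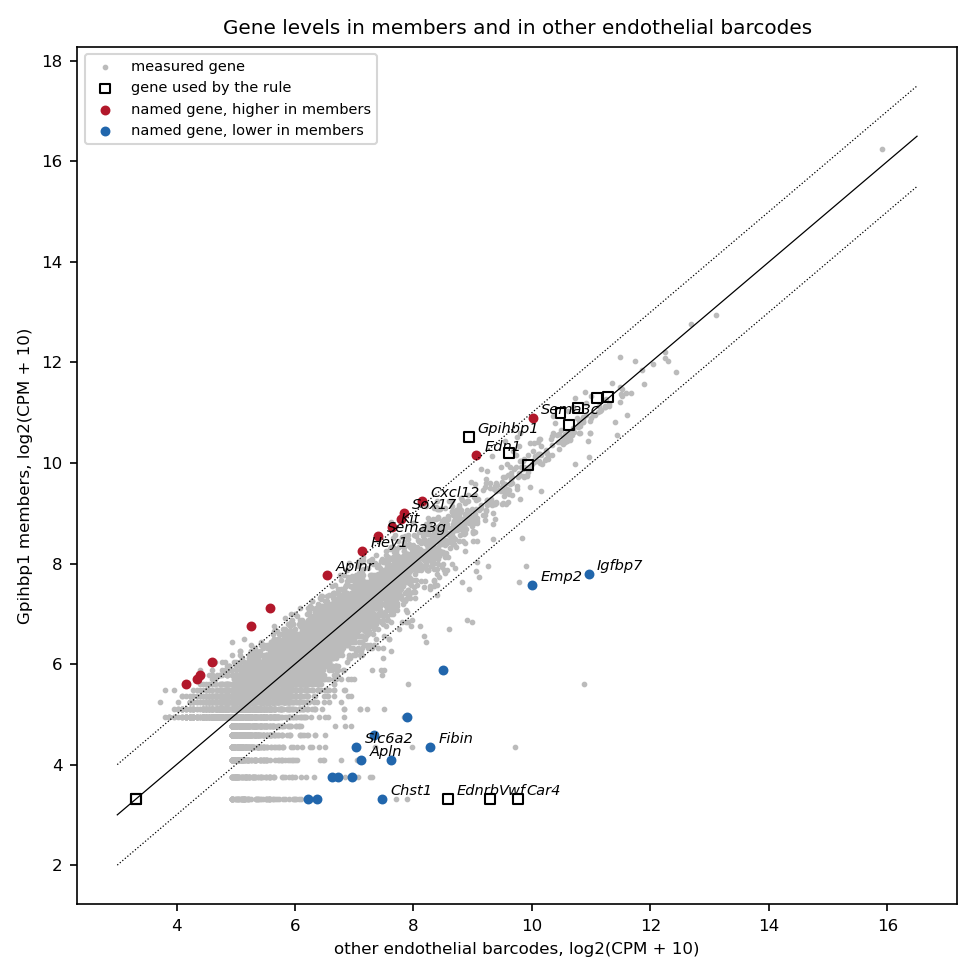
Each gray point is a gene, placed by its level in the 459 other endothelial barcodes (horizontal) and in the 181 members (vertical), both as log2(CPM + 10). The solid line marks equal levels and the dotted lines 2-fold on this scale, squares are genes used by the rule, and red and blue points are the 15 genes named in each direction. Most blue points lie farther from the equal line than the red ones, and Sema3c, with a log2 ratio of 0.89, is the red point nearest to it.

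Outside the lists, the genes named by the lower bound of their ratio over other endothelial barcodes included Dnah8, Cd1d1, Slc6a6, Ppan, Fes, Fat4 and Nup210. Dnah8, a dynein heavy chain gene, had 37 UMIs in 33 members, against 48 UMIs in the other endothelial barcodes (129 and 37.8 CPM), a log2 ratio of 1.77 (1.11 to 2.42). Cd1d1, which encodes a protein that presents lipids to T cells, had 28 UMIs in 24 members, against 36 UMIs in the others (97.6 and 28.3 CPM), a log2 ratio of 1.78 (1.02 to 2.54). Slc6a6, the taurine transporter gene, stood at 459.9 CPM in members, against 212 CPM in the others, a log2 ratio of 1.12 that was 0.80 without suffix 5. Ppan, Fes, Fat4 and Nup210 rested on 11 to 16 UMIs in members, and the log2 ratio of Nup210, 2.03, was 0.86 after thinning.

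The arterial list did not move as a block. Of 14 genes, 5 of 9 measured were higher in members than in the Car4 or Ednrb set and none lower, with a median log2 ratio of 1.06. Against the Vwf set 2 of 13 were higher and 5 lower, with a median of -0.12 that lay between -0.50 and 0.73 over the alternatives, so its direction was not settled. Against all other endothelial barcodes 4 of 11 were higher and 2 lower, with a median of 0.71, which was 0.02 without barcodes that hold UMIs of other cell types and -0.18 with no minimum level. A median of 3 arterial genes had a UMI in a member, against 2 in a Car4 or Ednrb barcode and 3 in a Vwf barcode. Edn1 is on this list as well as among the class markers.

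The genes that were higher than in the Car4 or Ednrb set were Edn1, Gja4, Hey1, Sox17 and Efnb2, and Gja4 and Sox17 were also higher than in the Vwf set. Gja4, the gap junction gene of connexin 37, stood at 442.5 CPM in members, against 113 CPM in the Car4 or Ednrb set and 219 CPM in the Vwf set. In suffixes 1 to 6 it stood at 166, 272, 341, 690.5, 571 and 548 CPM in members, against 204, 119, 143, 249, 165 and 287 CPM in the other endothelial barcodes. Suffix 1 went against the rest, and the members' levels ran higher in suffixes 4, 5 and 6 than in suffixes 1, 2 and 3.

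Sox17, a transcription factor of arterial identity, stood at 505 CPM in members, against 236 CPM in the Car4 or Ednrb set and 199 CPM in the Vwf set. It was higher in members in each suffix, at 360.4 to 732 CPM against 165 to 294 CPM in the other endothelial barcodes. That direction was a condition of naming in 5 of the suffixes. Hey1, a target of Notch signalling, stood at 293 CPM in members, against 104 CPM in the Car4 or Ednrb set and 159 CPM in the Vwf set, and was lower in members of suffix 3 (68.2 against 105.5 CPM). Its log2 ratio over all other endothelial barcodes, 1.17, was 0.39 after thinning. Efnb2, the arterial ephrin ligand, stood at 439 CPM in members, against 211 CPM in the Car4 or Ednrb set and 243 CPM in the Vwf set.

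The 5 arterial genes that were lower than in the Vwf set were Fbln5, Bmx, Vegfc, Gja5 and Cdh13, most of them at few UMIs. Fbln5, an elastic fibre gene, had 2 UMIs in members, against 34 in the Vwf set, and Bmx, a kinase gene of arterial endothelium, had 2 against 23. Vegfc stood at 45.3 CPM in members, against 111 CPM in the Vwf set. Gja5, the connexin 40 gene, had 1 UMI in members, against 15 in the Vwf set, and Cdh13, a cadherin gene without a membrane-spanning part, had 2 against 19.

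The regulatory sequence before the start of 4 genes that were higher in members is shown because each was called higher in members than in the Car4 or Ednrb set. Sema3g and Gja4 were also called higher than in the Vwf set, while Edn1 and Sema3c stood under 2-fold there (0.73 and 0.89). Gja4 lay close to the 2-fold line there. Sema3g fell under it without barcodes holding UMIs of other cell types (0.84), with barcodes weighted equally (0.90) and without the deepest barcodes (0.93). The sequence shown is the 250 bases upstream of each RefSeq start on GRCm38.p6, written 5′ to 3′ on the gene's strand. Capitals mark GGAAG and its reverse complement CTTCC, the core letters of sites for ETS factors, a family active in endothelial cells.
Edn1 (chr13:42301226-42301475, plus strand): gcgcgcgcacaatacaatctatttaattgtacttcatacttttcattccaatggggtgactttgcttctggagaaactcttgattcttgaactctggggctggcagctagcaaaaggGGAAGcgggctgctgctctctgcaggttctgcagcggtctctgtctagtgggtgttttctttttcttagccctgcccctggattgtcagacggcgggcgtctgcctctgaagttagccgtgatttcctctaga
Sema3c (chr5:17574566-17574815, plus strand): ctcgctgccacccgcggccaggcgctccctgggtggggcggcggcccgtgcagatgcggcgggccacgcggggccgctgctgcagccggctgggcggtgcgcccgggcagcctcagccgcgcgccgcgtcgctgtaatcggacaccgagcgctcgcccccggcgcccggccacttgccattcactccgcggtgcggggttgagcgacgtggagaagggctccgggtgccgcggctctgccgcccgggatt
Sema3g (chr14:31217623-31217872, plus strand): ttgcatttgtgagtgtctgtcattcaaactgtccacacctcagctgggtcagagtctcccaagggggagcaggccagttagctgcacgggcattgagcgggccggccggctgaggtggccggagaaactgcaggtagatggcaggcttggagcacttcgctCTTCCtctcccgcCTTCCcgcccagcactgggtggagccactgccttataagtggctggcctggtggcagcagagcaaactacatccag
Gja4 (chr4:127314040-127314289, minus strand): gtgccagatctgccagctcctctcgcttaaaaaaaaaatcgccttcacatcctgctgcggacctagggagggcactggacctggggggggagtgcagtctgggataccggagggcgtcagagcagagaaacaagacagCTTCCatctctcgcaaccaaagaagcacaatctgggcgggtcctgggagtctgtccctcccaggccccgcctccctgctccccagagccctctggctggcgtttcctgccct
The Sema3c window lies before the RefSeq start but inside the longer GENCODE gene given above, since the annotations place the start differently. The letters occurred once in the Edn1 window, 0 times in the Sema3c window, 2 times in the Sema3g window and once in the Gja4 window. Of 32851 RefSeq windows of the same length, 21047 (64.1%) held at least 1 copy, so 3 of 4 windows is close to that background. Sema3g, another secreted semaphorin, stood at 366 CPM in members, against 138 CPM in the Car4 or Ednrb set and 170 CPM in the Vwf set, and was higher in members in each suffix (205 to 548 CPM against 112 to 229 CPM in the other endothelial barcodes). Windows of Gpihbp1, Clec1a, Aplnr, Sox17, Hey1 and Cdh5 are named only.

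Venous genes were lower in members than in the Vwf set. Since Vwf is on this list and that set was picked by it, the contrast follows in part from the rule. It is given as a description. Of 12 genes, Vwf belongs to the rule, and 8 of 9 measured were lower in members than in the Vwf set, with a median log2 ratio of -2.64. After thinning the median was -1.81. Against the Car4 or Ednrb set none of 5 measured genes was 2-fold apart, with a median of 0.88. In 60.2% of members no venous gene had a UMI, against 66.8% of the Car4 or Ednrb set and 24.5% of the Vwf set.

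Prss23, a serine protease gene, stood at 94.1 CPM in members, against 48.9 CPM in the Car4 or Ednrb set and 649 CPM in the Vwf set. Slc6a2, the noradrenaline transporter gene of lung veins in mice, had 3 UMIs in members, against 150 in the Vwf set, a log2 ratio of -4.41 (-6.70 to -2.84). Nr2f2, a transcription factor of venous identity, stood at 20.9 CPM in members, against 40.4 CPM in the Car4 or Ednrb set and 142 CPM in the Vwf set. Car8 had 0 UMIs in members, against 52 in the Vwf set, and Cytl1, a gene of a small secreted protein that is not on the list, had 1 against 143. Ephb4, a venous ephrin receptor gene, was under 2-fold apart from either set, at 209 CPM in members, against 113 CPM in the Car4 or Ednrb set and 196 CPM in the Vwf set.

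The genes named as higher in members than in the Vwf set included Clec1a, Sema3c and Sema3g, described above, and Sox17, with a log2 ratio of 1.35 (1.00 to 1.70). Tmem100, a membrane protein gene of the lung endothelium, stood at 4393 CPM in members, against 3692 CPM in the Car4 or Ednrb set and 2436 CPM in the Vwf set. Stmn1, which encodes a protein that destabilizes microtubules, stood at 554 CPM in members, against 368 CPM in the Car4 or Ednrb set and 249 CPM in the Vwf set. St6galnac2, a sialyltransferase gene, had 28 UMIs in members, against 15 in the Vwf set, a log2 ratio of 2.13 (1.18 to 3.14). After thinning, the log2 ratio over the Vwf set was 0.96 for St6galnac2 and 0.71 for Stmn1, both under 2-fold.

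Stmn1 is also 1 of 16 cell cycle genes, of which 9 had no UMI in members, among them Mki67 and Top2a, genes of dividing cells. The 4 that were measured against the other endothelial barcodes were all within 2-fold, and Stmn1 was the 1 gene higher than in the Vwf set. A count of 0 over the 287022 UMIs of the members entered ratios at the floor of 3 UMIs, which is 10.5 CPM.

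**Figure D3:**
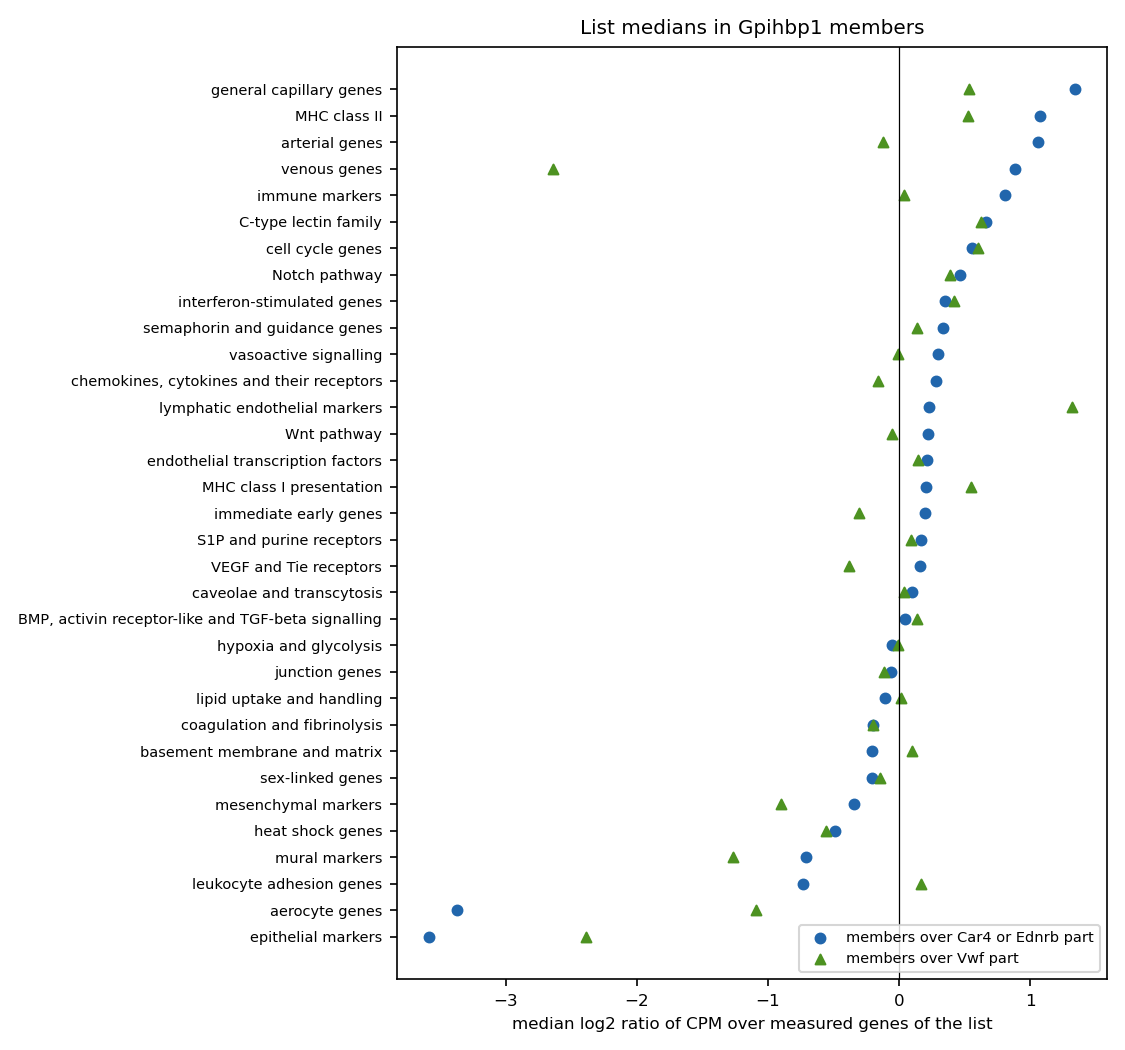
Median log2 ratio of CPM over the measured genes of each list with 4 or more of them, for members over the Car4 or Ednrb set (circles) and over the Vwf set (triangles), with lists in the order of the circles. General capillary genes lie at 1.34 and 0.54, aerocyte genes at -3.38 and -1.09, and venous genes at 0.88 and -2.64, while most signalling lists lie near 0.

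The list of major histocompatibility complex (MHC) class II genes was among those that set members apart from the Car4 or Ednrb set. Of 7 measured genes, 4 were higher in members than in that set and none lower, with a median log2 ratio of 1.07. Over all measured genes, 8.73% were higher than in that set and 10.6% lower. Against the Vwf set 1 of 7 was higher, the regulator Ciita with 6 UMIs in members and 2 in the Vwf set, with a median of 0.52, and against all other endothelial barcodes none was 2-fold apart, with a median of 0.71. Cd74, the class II chaperone, stood at 927 CPM in members, against 372 CPM in the Car4 or Ednrb set and 608 CPM in the Vwf set. H2-Ab1 stood at 369 CPM in members, against 151 CPM in the Car4 or Ednrb set and 219 CPM in the Vwf set. Leukocytes carry these genes at far higher levels, and a Cd74 UMI was found in 45.9% of members and in 62.7% of the Ptprc barcodes. These shares are not at equal depth, with a median of 1413 UMIs in members and 3279.5 in the Ptprc barcodes. Of 12 measured immune markers, which include Cd74, 5 were also higher in members than in the Car4 or Ednrb set (Cd52, Coro1a, Cd74, Cd79b and Nkg7) and Lyz2 was lower. The shares over all measured genes were 8.73% higher and 10.6% lower. Apart from Cd74, the higher ones rested on few members. Cd52 had 20 UMIs in 7 members, Coro1a 10 in 7, Cd79b 7 in 6, and Nkg7 10 in 3, with 8 of these in 1 member. The median log2 ratio of the 12 was 0.81. Their sum was 1463 CPM in members, against 961 CPM in the Car4 or Ednrb set and 1694 CPM in the Vwf set. Lyz2, a macrophage gene, had 54 UMIs in members and Ear2 had none. The part of leukocyte RNA in the class II levels was not tested.

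MHC class I genes were less far apart. Of 11 measured genes none was 2-fold apart from any of the endothelial sets, with medians of 0.21 against the Car4 or Ednrb set, 0.55 against the Vwf set and 0.42 against all other endothelial barcodes. Of 12 measured interferon-stimulated genes, 2 were higher in members than in all other endothelial barcodes and none lower, against 4.18% higher and 9.14% lower over all measured genes. These were Ifit1, with 16 UMIs in members and 19 in the others, and Rsad2, with 6 and 5.

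Over all measured genes 4.18% were higher in members than in all other endothelial barcodes and 9.14% lower. Of the genes of lipid handling, the process in which Gpihbp1 takes part, 1 of 8 measured was higher and none lower. That gene, Lpl, which encodes the lipase that Gpihbp1 binds, stood at 268 CPM in members, against 85.1 CPM in the Car4 or Ednrb set and 178 CPM in the Vwf set. In suffix 2 it was slightly lower in members, at 129 against 140.0 CPM in the other endothelial barcodes. Lpl was also found outside the endothelium, with a UMI in 31.7% of the Ptprc barcodes against 25.4% of members. The Ptprc barcodes were deeper, at a median of 3279.5 UMIs against 1413 in members, so these shares are not at equal depth. The part of free RNA in the Lpl level of members was not tested. Cd36, a fatty acid receptor, stood at 2094 CPM in members, against 1661 CPM in the Car4 or Ednrb set and 1486 CPM in the Vwf set. Against the Car4 or Ednrb set Lpl was higher and 3 of 9 measured genes were lower, the lipases Mgll and Lipa and the cholesterol transporter Abcg1. Mgll had 21 UMIs in members, against 103 in the Car4 or Ednrb set, a log2 ratio of -1.58. Fabp4, a fatty acid carrier of many capillary beds, had no UMI in members.

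Over all measured genes, 8.73% were higher in members than in the Car4 or Ednrb set and 10.6% lower. Among 11 measured Notch pathway genes, 2 were higher in members than in the Car4 or Ednrb set, Hey1 and the ligand Dll1, and 1 was lower, the glycosyltransferase Mfng. None was 2-fold apart from the Vwf set. Dll4, the main arterial Notch ligand, stood at 132 CPM in members, against 95.7 CPM in the Car4 or Ednrb set and 80.0 CPM in the Vwf set. The semaphorin and guidance list split, with 4 of 16 higher and 4 lower than in the Car4 or Ednrb set. The higher ones were Sema3c, Sema3g, Efnb2 and Nrp2, and the lower ones Nrp1, Sema3f, Sema7a and Plxna2. Nrp2 had 6 UMIs in members, against 3 in the Car4 or Ednrb set and 49 in the Vwf set, so its direction differed between the sets.

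VEGF and Tie receptors were mixed too. Of 9 measured genes, Tek and Nrp2 were higher in members than in the Car4 or Ednrb set, and Kdr and Nrp1 were lower. The shares over all measured genes were 8.73% higher and 10.6% lower. Flt1, the decoy VEGF receptor, was at one level, with 519 CPM in members, against 499.8 CPM in the Car4 or Ednrb set and 704 CPM in the Vwf set. Npr3, the clearance receptor of natriuretic peptides, stood at 195 CPM in members, against 70.2 CPM in the Car4 or Ednrb set and 123 CPM in the Vwf set.

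Lists of genes of lung endothelium as a whole were 2-fold apart in members about as often as all measured genes were. Of 24 endothelial transcription factors, 1 was higher than in all other endothelial barcodes, Sox17, and 2 were lower, Nr2f2 and Tbx2. Epas1, a hypoxia-responsive factor abundant in lung endothelium, stood at 3059 CPM in members, against 2614 CPM in the other endothelial barcodes. None of 9 caveolae and transcytosis genes was 2-fold apart. Of 14 measured genes of bone morphogenetic protein and transforming growth factor signalling, 1 was lower, the co-receptor Tgfbr3. Over all measured genes 4.18% were higher and 9.14% lower, and the counts of these lists are close to those shares. Bmpr2, the receptor gene mutated in heritable pulmonary hypertension in people, stood at 1341 CPM in members, against 994 CPM in the other endothelial barcodes.

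Few stress genes were 2-fold apart from the other endothelial barcodes, while 3 of 7 measured leukocyte adhesion genes were. Gas6, a vitamin K-dependent ligand of the coagulation list, stood at 41.8 CPM in members, against 99.2 CPM in the other endothelial barcodes. The 3 adhesion genes, Icam1, Vcam1 and Cd34, were all lower in members, against 9.14% lower over all measured genes. Cd34 stood at 108 CPM in members, against 508 CPM in the Car4 or Ednrb set and 91.9 CPM in the Vwf set. Of 15 measured immediate early genes 1 was lower, Fos, at 188 CPM in members, against 440.1 CPM in the others. Of 8 measured heat shock genes 1 was lower, Hspb1, at 38.3 CPM in members, against 229 CPM in the others. These shares of 1 in 15 and 1 in 8 are close to the 9.14% of all measured genes that were lower. Against the Car4 or Ednrb set, 3 of 15 immediate early genes were higher, Atf3, Nr4a1 and Socs3, and none lower. Over all measured genes 8.73% were higher than in that set. Atf3 rested on 7 UMIs in 5 members and Nr4a1 on 14 UMIs in 11 members.

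**Figure D4:**
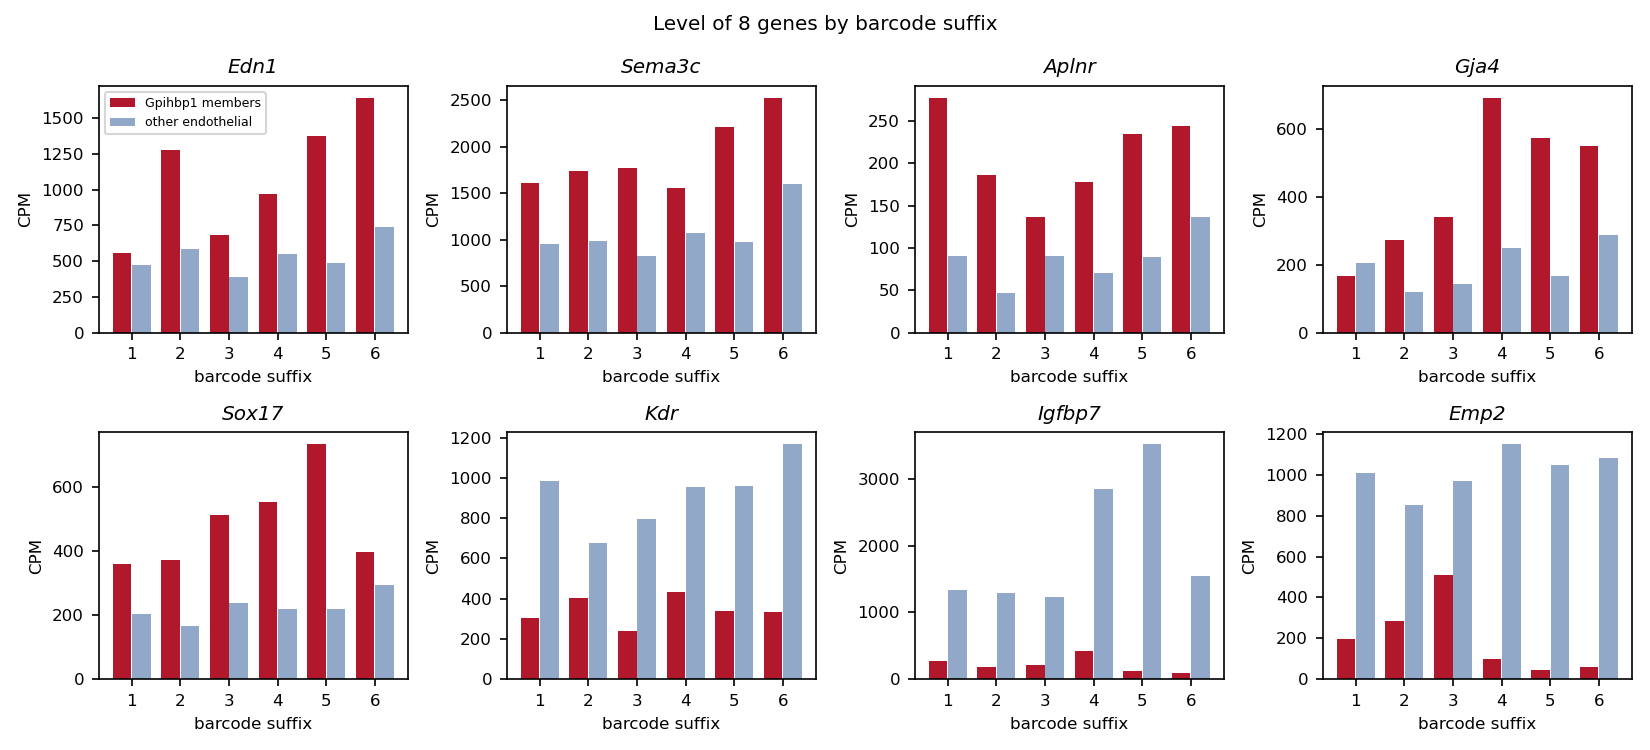
Level in CPM (linear axes from 0) of 8 genes in members and in other endothelial barcodes for each barcode suffix, with 14 to 61 members a suffix. Edn1, Sema3c, Aplnr and Sox17 were higher and Kdr, Igfbp7 and Emp2 lower in members of each suffix, and Gja4 was higher in all but suffix 1. For Edn1, Sema3c, Aplnr, Sox17, Igfbp7 and Emp2 the same direction in 5 of the suffixes was a condition of naming.

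Against all other kept barcodes, which are mostly leukocytes and mesenchymal cells, the members showed the endothelial genes. All 11 measured general capillary genes were higher, with a median log2 ratio of 3.63 against 0.32 over all measured genes. The genes farthest above included Edn1 (5.49), Sox17 (5.53), Gja4 (5.41), Sema3g (5.38) and Aplnr (5.46), with the log2 ratio of members to the others given for each. Tmem100 stood at 4393 CPM in members, against 165 CPM in the others. The genes farthest below were those of other cells, such as Sftpc, Lyz2 and Gsn. Since endothelial barcodes were picked by endothelial genes, this contrast follows in part from the rule.

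Markers of other cell types were also measured. The 12 epithelial markers summed to 199 CPM in members, against 1674 CPM in the Car4 or Ednrb set, 1911 CPM in the Vwf set and 10050 CPM in the barcodes without the 4 genes, and Epcam, Krt18, Nkx2-1, Scgb3a2 and Sftpb had no UMI in members. These sums rested on a minority of barcodes. No epithelial marker had a UMI in 86.7% of members, 85.9% of the Car4 or Ednrb set, 74.1% of the Vwf set and 79.4% of the barcodes without the 4 genes. Over suffixes the 12 mesenchymal markers ran to 1065 CPM in members of suffix 4, and summed to 331 CPM in all members, against 695 CPM in the other endothelial barcodes. The 9 mural markers summed to 108 CPM in members, against 176 CPM in the others, with Cspg4 and Kcnj8 at 0. The 17 immune markers summed to more in members than in the Car4 or Ednrb set (1463 and 961 CPM), to 1694 CPM in the Vwf set and to 5608 CPM in the barcodes without the 4 genes, and Cd74 made up 927 CPM of the sum in members. The 7 lymphatic markers summed to 498 CPM in members, against 1386 CPM in the others, and 65 of the 68 Ccl21a UMIs in members lay in 1 member of suffix 3.

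Sftpc, the surfactant gene of alveolar epithelium, stood at 38.3 CPM in members, against 1308 CPM in the Car4 or Ednrb set and 1188 CPM in the Vwf set. The 2373 Sftpc UMIs of the 459 other endothelial barcodes lay in 46 of them, with 597 in 1 barcode. In members 11 UMIs lay in 11 barcodes. At least 3 UMIs over 18 defining genes of other cell types, Cd74 among them, were found in 49 members (27.1%), 49 Car4 or Ednrb barcodes (26.6%) and 80 Vwf barcodes (37.7%). With these left out, Edn1 had a log2 ratio over the other endothelial barcodes of 1.02, Aplnr of 1.37, Sox17 of 1.09, Kit of 1.42 and Igfbp7 of -3.66. Scrublet, a doublet caller run per suffix, called 75 of the kept barcodes and 3 members.

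**Figure D5:**
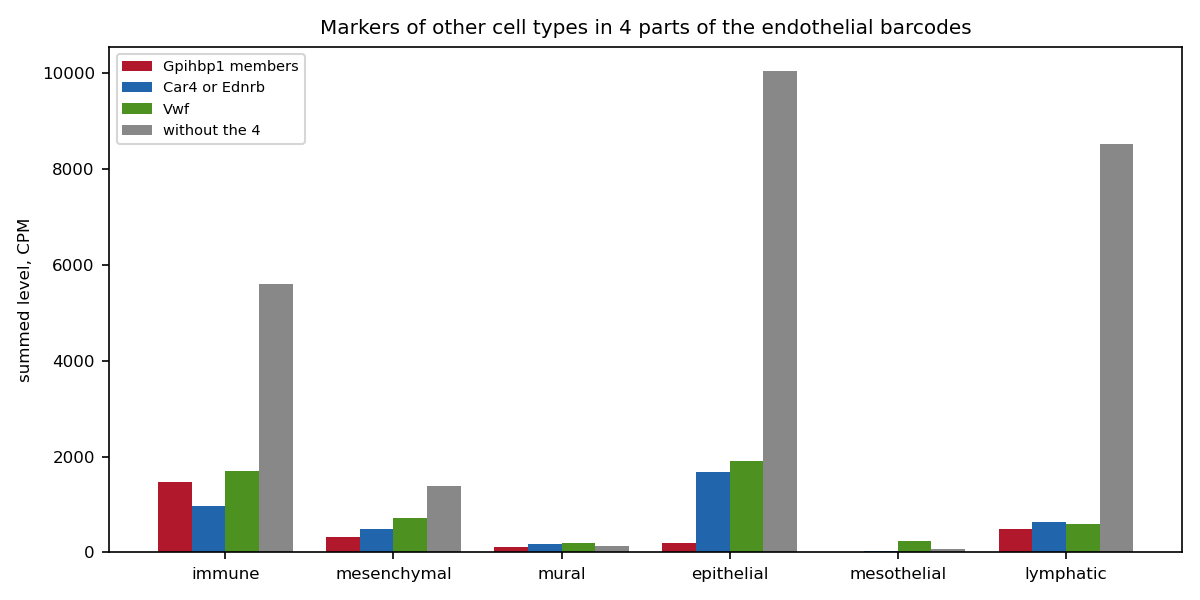
Summed level in CPM of marker genes of 6 other cell types in members, Car4 or Ednrb barcodes, Vwf barcodes and barcodes without the 4 genes (without Ptprc and Prox1, which the rule sets to 0). Epithelial markers summed to 199 CPM in members and to 10050 CPM in the barcodes without the 4 genes, which also had the highest lymphatic sum, 8532 CPM. Most barcodes of each set had no UMI of an epithelial marker, so the epithelial sums rest on a minority of barcodes.

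Xist led the 10 genes whose level in members differed most between suffixes, and several of the others rested on single barcodes. Of 93 Mgp UMIs in members, 50 lay in 1 member of suffix 4. Levels of Mgp, a matrix protein gene of larger vessels and mesenchymal cells, were 388, 14.3, 136, 1421, 29.3 and 0 CPM in members of suffixes 1 to 6. All 19 Gpc3 UMIs and all 15 Ager UMIs lay in 1 member each, both of suffix 2. Trip11, a Golgi protein gene, was spread over 22 members, and Scgb1a1, an airway secretory gene, over 10. Whether these suffix differences belong to day, gate or sex cannot be told apart.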

How the data were processed

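The data are droplet single-cell RNA libraries made with a 10x Genomics 3′ kit, per the labels' protocols. Per the submitters' processing notes, STAR 2.5.1, Cell Ranger 1.3.0 and the mm10 genome were used. The method of cell calling is not stated there. Unnormalized UMI counts, whole numbers for 27998 genes by 10410 barcodes, were deposited. All per-cell columns were used as 1 pooled sample, with suffixes as unlabelled parts. UMIs were summed over each set of barcodes and scaled to CPM (numpy 2.4.6, pandas 2.3.3). Ratios have exact conditional binomial intervals, levels exact Poisson intervals and shares Clopper-Pearson intervals at 95% (scipy 1.17.1), for counting error only. A count under 3 UMIs entered ratios at 3, except that a ratio printed for a count of 1 or 2 is not floored. The ratio calculation was tested on simulated data. Members held 287022 UMIs and the other endothelial barcodes 1270240. Per comparison, the 15 genes in each direction with the bound farthest from 0 and the same sign in every suffix with 15 or more barcodes on both sides were named; of suffix variation, the 10 genes farthest apart, and from each list up to 4 genes by bound. Some further genes were named after their values were seen. Doublets were called per suffix with Scrublet (scanpy 1.11.5) and kept in the main analysis. Gene positions are from GENCODE M21. The members, the 36 gene lists (469 of 471 symbols found) and the comparisons were chosen with earlier results of these data known. A second deposited table, of normalized values, was not used here. 1 result on the coagulation list is not reported here.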

Additional observations from a re-analysis of the deposited data

How the results depend on the processing

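No paired analysis was possible because the table pools all samples and no barcode can be tied to a replicate. Of 18 alternatives, the one that leaves out endothelial barcodes deeper than the deepest member was chosen after seeing the data. The share of endothelial barcodes that were members was 20.7% at 1000 genes and 5% mitochondrial UMIs and 22.7% at 2 or more Gpihbp1 UMIs, and 25.8% to 29.8% with a suffix left out. With a 50 CPM minimum, 300 genes were apart from the other endothelial barcodes, 1861 from all other kept barcodes, 551 from the Car4 or Ednrb set and 343 from the Vwf set. With no minimum beyond 3 UMIs the counts were 2874, 10014 and 2046 for the other endothelial barcodes, all other kept barcodes and the Vwf set. With a suffix left out they ran from 943 to 1086, 3013 to 3376, 1364 to 1597 and 1072 to 1236 for the same 4 comparisons.

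The balance of higher and lower genes depended on the setting. Against the other endothelial barcodes 31.4% of genes apart were higher in members, and 63.1% after thinning, 57.6% at 1000 genes and 5% mitochondrial UMIs, 58.0% without barcodes holding UMIs of other cell types, 48.5% at 2 or more Gpihbp1 UMIs, 42.5% with barcodes weighted equally, 76.1% with no minimum and 43.1% without suffix 2. Against the Car4 or Ednrb set (45.1%) it was 65.9% at the stricter filter, 64.2% without such barcodes and 58.6% at 2 or more Gpihbp1 UMIs. Against the Vwf set (36.7%) it was 57.0% at the stricter filter and 57.0% without such barcodes, 54.6% at 2 or more Gpihbp1 UMIs, 50.1% after thinning, 64.7% with no minimum, 46.8% without suffix 2 and 46.9% without the deepest barcodes. Against all other kept barcodes (57.3%) it was 71.4% at the stricter filter and 86.0% with no minimum. Counts under 3 UMIs entered at 3, which is 10.5 CPM in members and a lower CPM in sets with more UMIs. With no minimum, a gene without UMIs in members can thus count as higher in them. Against all other kept barcodes 8614 genes were then called higher and 1400 lower. How much of each shift in balance comes from this floor was not tested.

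Of the values of 120 single-gene results over the alternatives, 1946 stayed within their counting interval, 208 moved out of it and 6 changed sign. Of those of 106 list medians, 200 changed sign, and 7 of these had a main size of 2-fold or more. Among the others were the immune median over the other endothelial barcodes (0.11, and -0.73 at 2 or more Gpihbp1 UMIs) and the mural median over the Car4 or Ednrb set (-0.71, and 1.56 at the stricter filter). Mt1 over the other endothelial barcodes reversed to 0.13 after thinning and to 0.48 without barcodes holding UMIs of other cell types, where Mt1 over the Vwf set was 0.50. Aqp11 over the Car4 or Ednrb set was -0.073 after thinning. Igfbp5 over the Vwf set was 0.084 without those barcodes and 0.082 without the deepest ones, and 173 of its 289 UMIs in the other endothelial barcodes lay in 1 barcode. The epithelial median over the Car4 or Ednrb set, -3.59 over 5 measured genes in the main setting, was 1.33 at the stricter filter, 0.83 without barcodes holding UMIs of other cell types, 0.76 with suffixes weighted equally, between -3.38 and 0.77 with a suffix left out (0.77 without suffix 3), and 1.10 without the deepest barcodes. Without barcodes holding UMIs of other cell types it was 1.23 over the other endothelial barcodes and 0.71 over the Vwf set.

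Edn1 over the other endothelial barcodes lay between 0.66 and 1.20, Sox17 between 0.87 and 1.65, Kit between 1.03 and 1.42, and Igfbp7 between -3.66 and -2.78. Called at 2-fold over the other endothelial barcodes, Edn1 fell under that size at the stricter filter (0.97), after thinning (0.66), with barcodes weighted equally (0.83) and without the deepest barcodes (0.97), and Hey1 after thinning (0.39) and with barcodes weighted equally (0.79). Without suffix 5 Chst1 over the Car4 or Ednrb set was -4.47 and Fibin -5.41, and over the other endothelial barcodes Sox17 was 0.99, Cxcl12 0.88 and Slc6a6 0.80. Members held few UMIs each, so genes under 20 CPM in both sets were not compared at this depth.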
